A study of Mus musculus with 38 samples.

Results

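Among the distal H3K27ac peaks of silenced mouse cortical neurons, 5134 had no counterpart after depolarisation and lay away from the enhancers marked by the coactivator CBP. These lost peaks were chosen by 2 conditions: a peak of the merged unstimulated distal list had to overlap no peak of the merged KCl genome-wide list, by 1 bp or more, and had to contain no position of the deposited list of distal sites with CBP and H3K4me1. They made up 26.2% of the 19628 unstimulated distal peaks (95% Wilson interval 25.5 to 26.8%, counting error only). All lost distal peaks together numbered 5872, 29.9% of the list, of which 738 held a CBP site. Set beside them here are 10045 distal peaks outside CBP sites that were kept, that is, overlapped a KCl peak, and 3592 that were gained, that is, KCl distal peaks outside CBP sites with no unstimulated peak.

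The study mapped H3K27ac and 3 AP-1 proteins by chromatin immunoprecipitation and sequencing (ChIP-seq) in cortical neurons of C57BL/6 embryos of day 16.5, grown to day 7 in vitro. All cultures were silenced overnight with 1 µM TTX, a sodium channel blocker, and 100 µM DL-AP5, an NMDA receptor blocker. KCl cultures were then depolarised for 2 h, and unstimulated cultures stayed silenced. H3K27ac came from biological samples 1 and 2, merged by the authors into 1 list per condition. In biological samples 3 and 4, 2 antibodies, sc52 and sc7202, were used for c-Fos and sc48 for FosB, each in KCl and in unstimulated neurons. JunB was mapped with sc46, in both conditions of sample 4. Biological samples 5 and 6 were all KCl cultures, with c-Fos shRNA (c-Fos mapped by sc52), FosB shRNA (FosB mapped by sc48) or control shRNA (both mapped). The 38 samples comprise 4 H3K27ac, 22 AP-1 and 12 input libraries. The cultures were labelled only as cortical neurons, so other cell types of the embryonic cortex may be present, and in a mixed culture a mark lost in fewer cells cannot be told apart from a weaker mark in each cell.

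H3K27ac is acetylation of histone H3 at lysine 27, a mark of active promoters and enhancers that CBP and its relative p300 deposit. Depolarisation opens voltage-gated calcium channels and induces the Fos genes within the hour. c-Fos and FosB bind DNA as dimers with Jun proteins such as JunB, and these AP-1 dimers occupy many enhancers that are activated by neuronal activity. Whether AP-1 occupied the places where acetylation was lost can be asked here because AP-1 was mapped in other cultures and played no part in choosing the peaks.

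The lost peaks were narrow and weak for the list they came from. Their width had a median of 1752 bp (quartiles 1501 and 2095 bp, range 762 to 5979 bp), and together they covered 9.51 Mb. Kept peaks outside CBP sites were wider, with a median of 2332 bp, and gained peaks had a median of 1759 bp. The authors' peak score, which rises with the significance of a peak in its own list and starts at 50, had a median of 89.1 in lost peaks (quartiles 66.7 and 134), against 222 in kept peaks. In gained peaks, scored in the KCl list, the median was 83.3. Of the lost peaks, 3000 (58.4%) scored under 100, 560 (10.9%) scored 200 or more and 54 scored 500 or more. These values depend on the same peak calls that chose the peaks and are given as a description.

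The weaker a peak, the more often it was lost. Among unstimulated distal peaks outside CBP sites, 64.3% of those scoring 50 to 75 were lost. The share was 54.6% at 75 to 100, 40.8% at 100 to 150, 31.8% at 150 to 200, 19.2% at 200 to 300, 9.52% at 300 to 500 and 2.17% at 500 or more. Gains showed the same dependence, with shares of 53.1%, 43.9%, 30.6%, 21.9%, 11.1%, 6.26% and 1.02% over the same score ranges of the KCl list. In all 7 score ranges the share lost was above the share gained. The scores come from 2 separate lists of unknown depth, so equal ranges need not mean equal signal. The genome-wide lists held 30239 unstimulated and 29418 KCl peaks. With 1 merged list per condition, a large loss of signal and a small one across the calling threshold cannot be told apart.

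**Figure D1:**
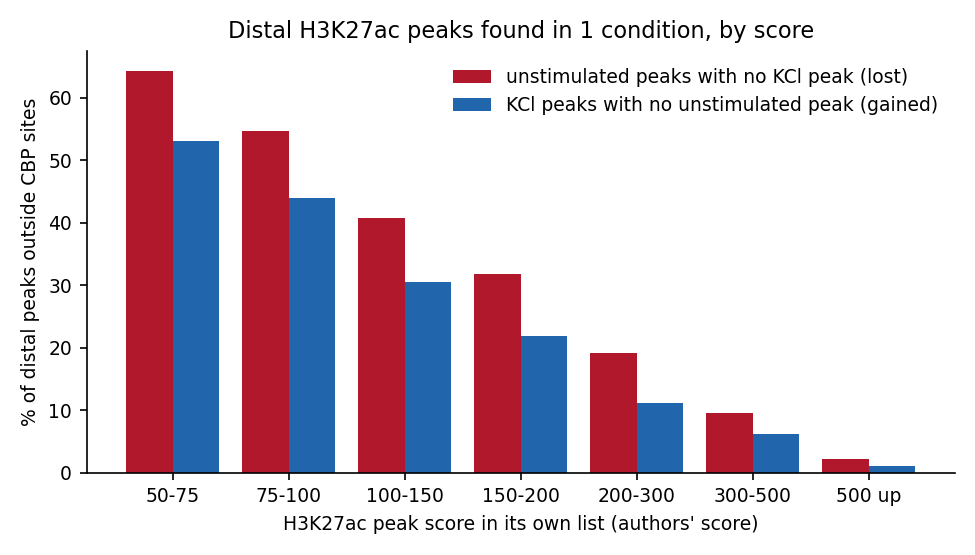
Share of distal H3K27ac peaks outside CBP sites found in 1 condition alone, by the authors' peak score. Red bars are unstimulated peaks with no KCl peak (lost) and blue bars are KCl peaks with no unstimulated peak (gained); both fall with the score, from 64.3% and 53.1% in the weakest range to 2.17% and 1.02% in the strongest.

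The strongest lost peaks stood in the upper part of the unstimulated distal list. The highest score, 1132, belonged to a peak of 2933 bp on chromosome 17 (mm9, chr17:34913665-34916597), which ranked 1345 in the unstimulated distal list and lay 55861 bp from the nearest KCl peak. The next was also on chromosome 17 (chr17:29312028-29315084), with a score of 1101. A peak of 5045 bp on chromosome 15 (chr15:67515842-67520886) scored 1004 and lay 151354 bp from any KCl peak. None of these 3 overlapped an AP-1 peak of any KCl library or any unstimulated library. Among the 10 lost peaks with the highest scores, the exceptions were a peak on chromosome 5 (chr5:37472407-37476851) with c-Fos in 1 of 6 KCl libraries and a peak on chromosome 9 (chr9:36927805-36931640) with FosB in 1 of 4. The widest lost peak, 5979 bp on chromosome 9 (chr9:106217130-106223108), had a score of 766 and no AP-1 peak either.

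At the boundary of the rule the peaks were few. The lost peak closest to a KCl peak (chr15:44529787-44531230) missed it by 3 bp and scored 57.1, and the kept peak with the smallest overlap (chr3:83793092-83795243) shared 14 bp and also scored 57.1. Lost peaks within 500 bp of a KCl peak numbered 109, with a median score of 82.8, against 89.1 in all lost peaks. Kept peaks that overlapped a KCl peak by 500 bp or less numbered 30, with a median score of 64.8, against 222 in all kept peaks. A CBP position lay within 500 bp of 22 lost peaks, with a median score of 98.2.

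c-Fos was present at few of the lost peaks after KCl. In KCl neurons of biological sample 3, c-Fos peaks overlapped 4.83% of the lost peaks with sc52 and 8.34% with sc7202. In KCl neurons of biological sample 4 the shares were 1.31% with sc52 and 4.29% with sc7202, and with control shRNA they were 5.51% in sample 5 and 4.46% in sample 6. The sc52 library of sample 4 was the lowest of the 6 and sc7202 of sample 3 the highest, which is also the order of their list lengths, 6808 and 28885 peaks. The mean was 4.79% ± 2.26 (SD, n = 6 libraries from 4 cultures), against 14.8% ± 5.57 of all unstimulated distal peaks.

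Unstimulated neurons had fewer c-Fos peaks at the same places. In unstimulated neurons the shares were 0.506% (sc52) and 0.351% (sc7202) in sample 3, and 0.292% (sc52) and 0.0584% (sc7202) in sample 4. Without shRNA, the lost peaks thus had a mean c-Fos share of 4.69% ± 2.88 in KCl neurons and 0.302% ± 0.186 in unstimulated neurons (SD, n = 4 libraries each), and no KCl library was as low as any unstimulated one. A rise was not particular to lost peaks: in the same libraries the means over all unstimulated distal peaks were 14.7% ± 7.03 and 1.09% ± 0.613. Over gained peaks they were 17.6% ± 6.47 and 0.452% ± 0.259. In the lost peaks the difference was 4.39 percentage points. Its exact two-sided permutation p was 0.0286, the smallest that 4 against 4 libraries allow. After Benjamini-Hochberg adjustment over the 4 such differences computed in the lost peaks, the permutation p was 0.114. With the libraries paired by biological sample and antibody the exact p was 0.125, the smallest that 4 pairs allow. Samples 3 and 4 were the only cultures here, and both tests counted sc52 and sc7202 of a culture as separate libraries. These cultures are too few for a test by culture. The KCl lists were also far longer, 6808 to 28885 peaks, against 557 to 3669 in unstimulated neurons, and with the lists shortened to an equal number of their best peaks the difference was 0.00487 percentage points (exact permutation p = 1). Among AP-1 peaks scoring at least 100 it was 1.36 percentage points (exact permutation p = 0.0286).

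Most lost peaks had no c-Fos in any KCl library. Of the 5134, 4484 (87.3%) were overlapped in 0 of the 6 libraries, 650 (12.7%) in at least 1, 356 (6.93%) in at least 2 and 27 (0.526%) in all 6. Over all unstimulated distal peaks these shares were 29.5% for at least 1 library, 20.7% for at least 2 and 3.78% for all 6. A position of the authors' combined c-Fos list fell in 121 lost peaks (2.36%), against 8.51% of all unstimulated distal peaks. Any of the 4 unstimulated c-Fos libraries overlapped 48 lost peaks (0.935%), against 2.86% of all. The lost peaks were below the background of the list on each of these 5 counts. That background includes peaks with a CBP site, so it does not separate loss from the exclusion of CBP sites. Kept peaks outside CBP sites were also below it for at least 1 library, at least 2 (17.4%), all 6 (2.50%) and the combined list (5.80%). For any unstimulated c-Fos library they were above it (3.59%). The lost peaks were below these kept peaks as well on all 5 counts.

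The lost peaks were the least occupied of the classes compared. Over the 6 KCl libraries the mean c-Fos share was 4.79% ± 2.26 in lost peaks outside CBP sites, against 12.1% ± 4.91 in kept peaks outside CBP sites, 18.02% ± 5.07 in gained peaks outside CBP sites and 22.8% ± 8.90 in lost peaks with a CBP site. Within each library the odds of a c-Fos peak in lost and in kept peaks were compared as a log2 odds ratio. Against kept peaks it was -1.71 and -1.33 in sample 3 (sc52 and sc7202), -1.77 and -1.44 in sample 4 (sc52 and sc7202), -1.56 in sample 5 and -1.23 in sample 6. The odds were lower in 6 of 6 libraries, with a mean log2 odds ratio of -1.51 ± 0.211 (SD), which corresponds to odds of 0.294 to 0.425 of those of kept peaks. The 4 unstimulated c-Fos libraries, with c-Fos at 3 to 26 lost peaks each, gave a mean of -2.50 against kept peaks. Their mean was -1.63 against lost peaks with a CBP site. Against gained peaks it was -0.73, with sc52 of sample 4 at 0.35. The unstimulated ratios were not tested.

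In the KCl libraries the contrast with the other lost peaks was wider. Against lost peaks with a CBP site, the c-Fos log2 odds ratio of lost peaks outside CBP sites averaged -2.64 ± 0.202 (SD, 6 libraries) and ranged over odds of 0.133 to 0.199. Against gained peaks it averaged -2.25 ± 0.407, with odds of 0.132 to 0.278. All 3 log2 odds ratios had an exact sign-flip permutation p of 0.0312 over the 6 libraries, the smallest that 64 flips allow, and 0.0312 after adjustment over the 3 comparisons. Over the means of the 4 cultures they were -1.48 against kept peaks, -2.58 against lost peaks with a CBP site and -2.23 against gained peaks, where the smallest exact permutation p is 0.125. Peak strength and width also differ between the classes. Among H3K27ac peaks scoring under 100 in both sets, a comparison added after the data were seen, the log2 odds ratios were -1.48, -2.90 and -1.89 in the same order, and among peaks 1 to 2 kb wide they were -1.54, -2.97 and -1.87.

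**Figure D2:**
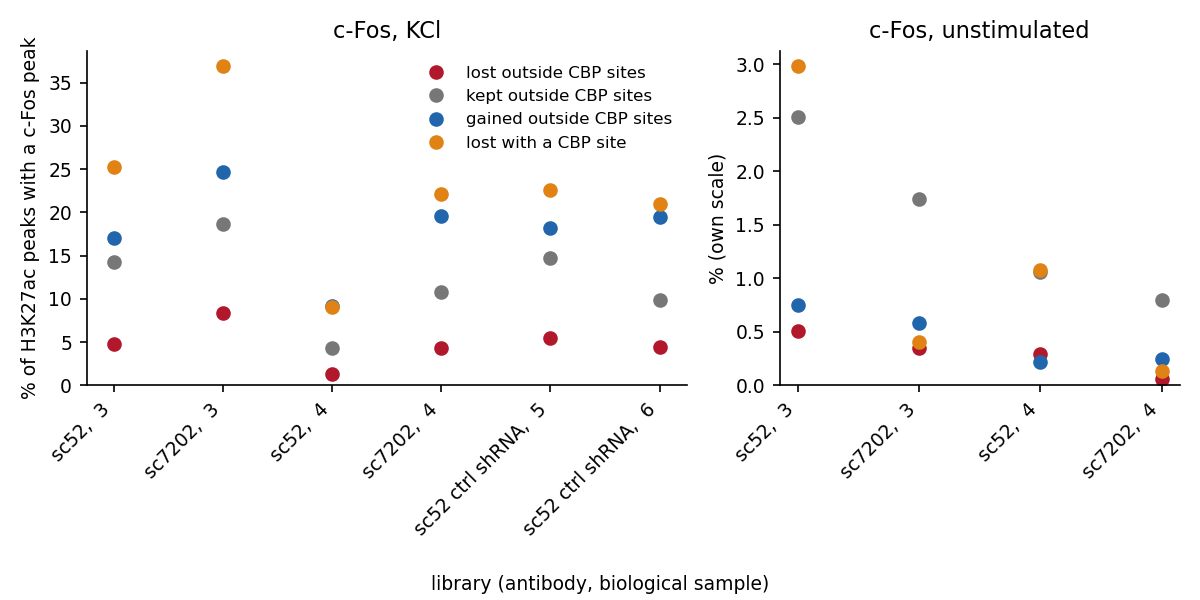
Share of distal H3K27ac peaks overlapped by a c-Fos peak in each KCl library (left) and each unstimulated library (right, own scale), for lost (red), kept (grey) and gained (blue) peaks outside CBP sites and lost peaks with a CBP site (orange). Each point is 1 library, named by antibody and biological sample; in all 6 KCl libraries the red point is the lowest, between 1.31% and 8.34%.

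Counted per length the order was the same. KCl c-Fos peak centres lay at 23.6 ± 11.3 per Mb of lost peaks, against 46.2 ± 19.9 per Mb of kept peaks, 93.5 ± 26.9 per Mb of gained peaks and 110 ± 43.6 per Mb of lost peaks with a CBP site (mean ± SD, 6 libraries). In each of the 6 libraries the density in lost peaks was below that in each of the other 3 classes.

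The few c-Fos peaks present were centred on the lost peaks. Within 400 bp of the midpoint, 7.43 ± 3.77 c-Fos centres were found per 200 bp per 1000 lost peaks, against 2.29 ± 1.01 in the flanks 3 to 5 kb away (mean ± SD, 6 KCl libraries). The ratio of centre to flank was 3.17 ± 0.478 for lost peaks, 6.61 ± 0.489 for kept peaks, 10.9 ± 2.26 for gained peaks and 14.8 ± 5.55 for lost peaks with a CBP site. Lost peaks outside CBP sites had the lowest ratio in 6 of 6 libraries.

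**Figure D3:**
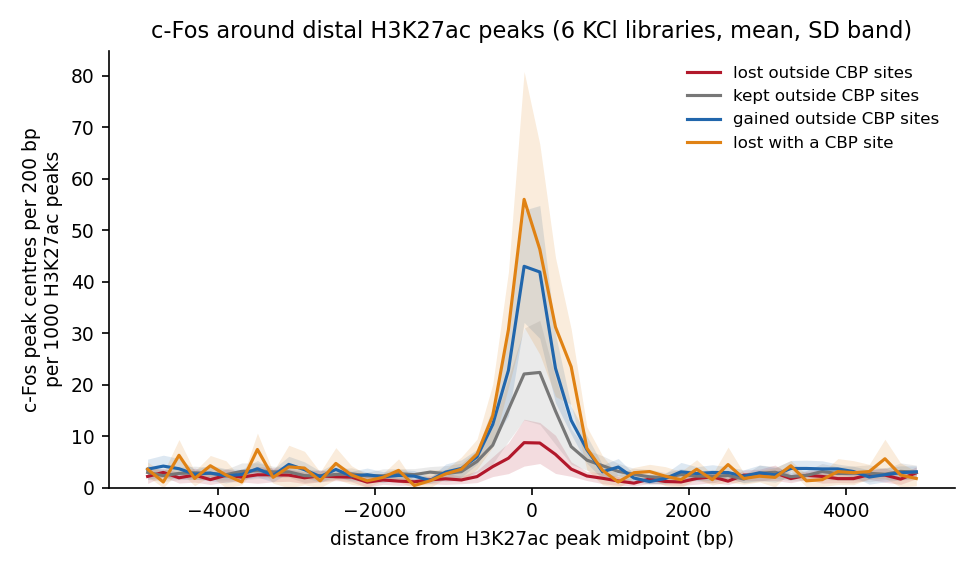
Density of KCl c-Fos peak centres around the midpoints of 4 classes of distal H3K27ac peaks, in bins of 200 bp per 1000 H3K27ac peaks. Lines are means of the 6 KCl libraries and bands show 1 SD; the lost peaks outside CBP sites (red) have a low summit, 7.43 within 400 bp of the midpoint against 2.29 in the flanks.

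The c-Fos peaks inside lost peaks ranked low in their own libraries. Their median score lay at the percentile 41.9 ± 2.15 of its library's list (mean ± SD, 6 KCl libraries), where the list's own median is by construction the middle. The median percentile was 53.8 ± 1.89 in kept peaks, 59.3 ± 2.61 in gained peaks and 49.9 ± 7.13 in lost peaks with a CBP site. Lost peaks outside CBP sites were lower than kept peaks in 6 of 6 libraries, lower than gained peaks in 6 of 6 and lower than lost peaks with a CBP site in 5 of 6, the sc52 library of sample 4 being the exception. The exact two-sided sign-flip permutation p over the 6 libraries was 0.0312 against kept peaks and against gained peaks, and 0.0625 against lost peaks with a CBP site. After adjustment over these 3 comparisons, which were added after the data were seen, the permutation p was 0.0469, 0.0469 and 0.0625 in the same order. The 6 libraries came from 4 cultures, so they are not all independent. By culture, sign flips of 4 values allow no exact permutation p below 0.125, and the percentiles were not tested that way.

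The c-Fos share of lost peaks varied little with their H3K27ac strength. Over the score ranges of 50 to 75, 75 to 100, 100 to 150, 150 to 200, 200 to 300, 300 to 500 and 500 or more, the mean c-Fos share of lost peaks over the 6 KCl libraries was 4.36%, 5.56%, 4.45%, 4.58%, 5.02%, 5.90% and 6.17%. Over the same ranges of the KCl score, gained peaks had 14.3%, 15.2%, 19.5%, 22.6%, 30.6%, 40.6% and 59.8%. Lost peaks scoring 200 or more had a c-Fos share of 5.39% ± 2.84, against 4.83% ± 2.28 in lost peaks scoring under 100, and were higher in 4 of 6 libraries. Gained peaks scoring 200 or more had 35.9% ± 8.17, against 14.7% ± 4.43 under 100, and were higher in 6 of 6. Kept peaks were closer to lost peaks in this, with 13.4% ± 5.89 at scores of 200 or more, against 11.8% ± 4.26 under 100, and were higher in 4 of 6. The 2 score limits were chosen after the values were seen, and the differences between the classes in this dependence were not tested. The strongest range held 54 lost and 22 gained peaks.

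**Figure D4:**
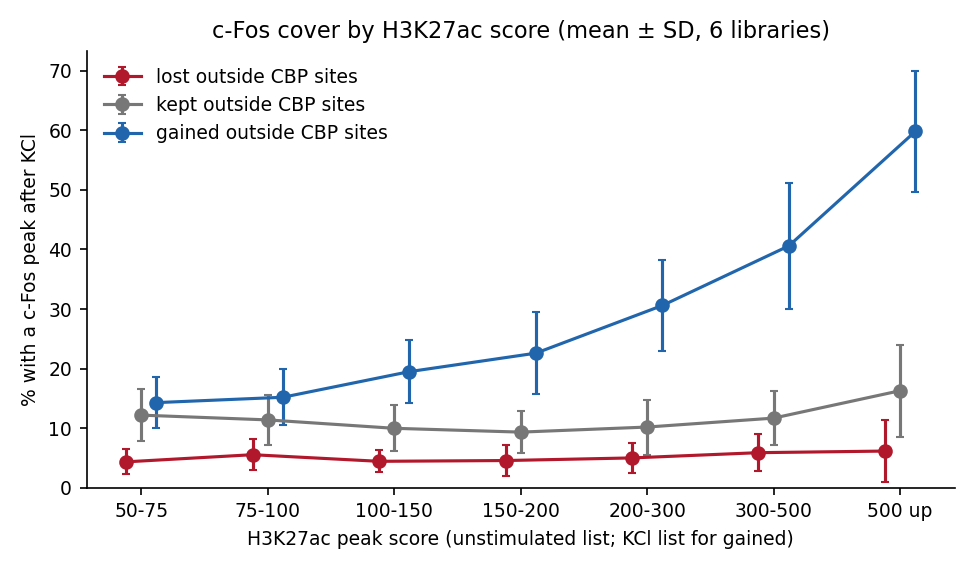
Share of lost (red), kept (grey) and gained (blue) distal H3K27ac peaks outside CBP sites with a c-Fos peak after KCl, by H3K27ac score in the list each peak came from. Points are means of 6 KCl libraries and bars show 1 SD; lost peaks stay between 4.36% and 6.17%, while gained peaks run up to 59.8%.

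FosB was scarce at the lost peaks as well. In KCl neurons without shRNA, FosB peaks overlapped 1.66% of the lost peaks in sample 3 and 1.27% in sample 4. Of all unstimulated distal peaks they overlapped 7.49% and 4.97%. In unstimulated neurons FosB overlapped 0.487% of the lost peaks in sample 3 and 0.915% in sample 4, against 1.26% and 2.23% of all. The KCl libraries were the higher ones in both samples, by 0.760 percentage points on average (1.46% ± 0.275 against 0.701% ± 0.303, SD, n = 2 each), but 2 against 2 libraries allow no exact permutation p below 0.333, the value found. The FosB lists held 10898 and 4899 peaks in KCl neurons, against 4229 and 2041 in unstimulated neurons, and with lists of equal length the difference turned to -0.253 percentage points. Any of the 4 KCl FosB libraries overlapped 472 lost peaks (9.19%), against 23.1% of all unstimulated distal peaks, and either unstimulated FosB library overlapped 69 (1.34%), against 3.40%.

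JunB, a Jun partner of c-Fos and FosB, was mapped in 1 culture and has no replicate. Its lists held 19346 peaks in KCl neurons, against 3126 in unstimulated neurons. In KCl neurons it overlapped 326 lost peaks, 6.35% (exact binomial interval 5.70 to 7.05%), against 16.8% of all unstimulated distal peaks. In unstimulated neurons it overlapped 68, 1.32% (exact binomial interval 1.03 to 1.68%), against 2.39% of all unstimulated distal peaks. After KCl the JunB share of lost peaks was below that of kept peaks, 11.5%, and of gained peaks, 20.99%. Without stimulation the 3 classes were close, with 1.32% of lost peaks, 1.31% of kept peaks and 1.39% of gained peaks, while lost peaks with a CBP site had 7.32%. Of the 68 lost peaks with JunB in unstimulated neurons, 35 (51.5%) also had it after KCl.

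Some of the lost peaks with AP-1 in unstimulated neurons also had it after KCl. With sc52, 15 of the 26 lost peaks with c-Fos in unstimulated neurons of sample 3 and 9 of the 15 of sample 4 also had c-Fos after KCl. With sc7202 these counts were 2 of 18 in sample 3 and 0 of 3 in sample 4. In unstimulated neurons of sample 4, FosB was found at 47 lost peaks and JunB at 68, of which 18 had both. Unstimulated FosB of samples 3 and 4 shared 3 lost peaks, out of 25 in sample 3 and 47 in sample 4.

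FosB and JunB were more frequent at lost peaks that had c-Fos in more KCl libraries. Among the 4484 lost peaks with no KCl c-Fos library, 3.28% had FosB in any KCl library and 1.67% had JunB. Among the 294 with c-Fos in 1 library these shares were 28.2% and 17.3%. In the 329 lost peaks with c-Fos in 2 to 5 libraries they were 65.3% and 53.2%. Of the 27 with c-Fos in all 6, all had FosB in at least 1 library and 25 (92.6%) had JunB. The proteins were mapped in shared cultures, so these counts are a description. Coincidence was common in every class: of the peaks with c-Fos (sc52) in sample 3, FosB of the same sample was present at 58 of 248 lost peaks, 502 of 1433 kept peaks, 225 of 611 gained peaks and 59 of 187 lost peaks with a CBP site. Any of the 11 KCl libraries overlapped 857 lost peaks (16.7%), against 35.4% of all unstimulated distal peaks. All 11 overlapped 10 lost peaks (0.195%), against 1.72%. Any of the 7 unstimulated libraries overlapped 153 (2.98%), against 6.95%.

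The 27 lost peaks with c-Fos in all 6 KCl libraries had a median H3K27ac score of 99.3. The median was 89.1 in all lost peaks and 222 in kept peaks outside CBP sites. The one with the highest-ranking c-Fos peaks lay on chromosome 1 (chr1:58795498-58797847), scored 107 and was 24068 bp from the nearest KCl H3K27ac peak. Its c-Fos peaks stood at a mean percentile of 95.7 in their lists, FosB was present in 4 of 4 KCl libraries and JunB in both conditions, and no unstimulated c-Fos or FosB peak was found. The next, on chromosome 7 (chr7:78518505-78520237), had a mean c-Fos percentile of 91.2, FosB in 4 of 4 KCl libraries and JunB after KCl alone. Another, on chromosome 14 (chr14:18893851-18895383) had a mean percentile of 90.8 and the same FosB count. All 3 held a position of the combined c-Fos list. These 3 regions were picked for the rank of their c-Fos peaks, and the region at rank 10 had a mean percentile of 77.2. By the rule, no H3K27ac peak was called there after KCl.

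c-Fos shRNA left little c-Fos at the lost peaks. In KCl neurons with c-Fos shRNA, c-Fos overlapped 1.21% of lost peaks in sample 5 and 0.117% in sample 6, against 5.75% and 0.769% of all unstimulated distal peaks in these libraries. With control shRNA the shares were 5.51% in sample 5 and 4.46% in sample 6. The mean difference in lost peaks was -4.32 percentage points (0.662% ± 0.771 against 4.99% ± 0.744, SD, n = 2 each). Its exact permutation p of 0.333 is the smallest that 2 against 2 libraries allow. The c-Fos lists held 7808 and 1793 peaks with c-Fos shRNA, against 23578 and 19131 with control shRNA, and with lists of equal length the difference was -0.0974 percentage points. Of the lost peaks with c-Fos under control shRNA, 32 of 283 (11.3%) in sample 5 and 6 of 229 (2.62%) in sample 6 were still overlapped under c-Fos shRNA. In kept peaks these shares were 30.9% and 8.34%, and in gained peaks 9.82% and 1.42%.

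FosB remained at more of the lost peaks under FosB shRNA. In KCl neurons with FosB shRNA, FosB overlapped 3.60% of lost peaks in sample 5 and 2.55% in sample 6, against 11.7% and 6.98% of all unstimulated distal peaks in these libraries. With control shRNA the shares were 6.80% in sample 5 and 3.74% in sample 6, against 19.4% and 10.1% of all, so the list as a whole fell too. The mean difference in lost peaks was -2.19 percentage points, with an exact permutation p of 0.333, again the smallest possible. FosB shRNA lists had 9941 and 7180 FosB peaks, whereas the control lists had 22933 and 14139, and with lists of equal length the difference was 1.09 percentage points, the opposite sign. Of the lost peaks with FosB under control shRNA, 110 of 349 (31.5%) in sample 5 and 70 of 192 (36.5%) in sample 6 still had it under FosB shRNA. In kept peaks these shares were 34.4% and 35.9%, and in gained peaks 34.6% and 38.6%.

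**Figure D5:**
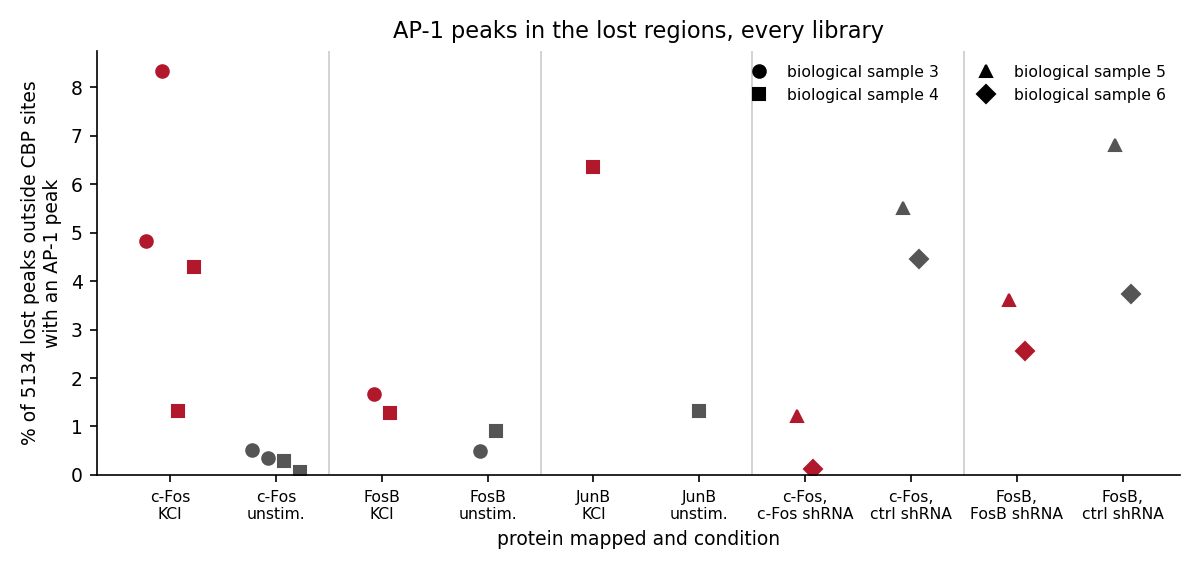
Share of the 5134 lost peaks overlapped by an AP-1 peak in every AP-1 library, by protein and condition; symbols give the biological sample, red points are KCl or shRNA libraries and grey points the unstimulated or control shRNA libraries set beside them. c-Fos reaches 8.34% and JunB 6.35% after KCl, and c-Fos under c-Fos shRNA is at 1.21% and 0.117%.

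The lost peaks were spread over the genome, mostly with no other lost peak within 10 kb. Their share of the unstimulated distal peaks ranged over the chromosomes between 22.9%, on chromosomes 13 and 14, and 31.1%, on chromosome 15. The nearest KCl peak lay at a median of 19209 bp, the nearest other lost peak outside CBP sites at 78182 bp and the nearest gained peak outside CBP sites at 220429 bp. From kept peaks the nearest lost peak lay at a median of 100906 bp, and from gained peaks at 171483 bp. Another unstimulated H3K27ac peak lay at a median of 13770 bp from lost peaks, 10409 bp from kept peaks and 18114 bp from gained peaks. It was within 10 kb of 41.5% of lost, 48.9% of kept and 35.7% of gained peaks. A KCl peak was within 1 kb of 229 lost peaks (4.46%) and within 5 kb of 1064 (20.7%), and a gained peak was within 1 kb of 20. The nearest CBP position lay at a median of 47775 bp from lost peaks and 44806 bp from kept peaks outside CBP sites.

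Some lost peaks came in groups. Linking lost peaks within 10 kb of each other left 4400 (85.7%) alone, 588 in 294 groups of 2, and 146 in groups of 3 to 7. The largest group held 7 lost peaks over 34188 bp of chromosome X (chrX:47925151-47959338), with scores of 79.9 to 262, and 1 KCl peak lay in its span. The next held 6 over 26960 bp of chromosome 9 (chr9:113095200-113122159), with scores of 61.2 to 817 and no KCl peak in the span. Neither group had a c-Fos peak in any KCl library. Of the 7 groups of 4 lost peaks, the one with the highest summed score, on chromosome 15 (chr15:80330304-80349771), had c-Fos at 1 peak, in 5 libraries.

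Where a classified CBP site lay within 10 kb of a lost peak, the nearest was most often of the authors' class of decreasing H3K27ac. Any CBP position lay within 10 kb of 836 lost peaks, but a classified one of only 342. The nearest classified site was decreasing for 120 (35.1%), without H3K27ac for 106 (31.0%), constant for 63 (18.4%) and increasing for 53 (15.5%). In the same order these classes hold 738, 1886, 800 and 1468 sites. For kept peaks outside CBP sites, 11.3% of the nearest classified sites were decreasing and 39.1% increasing. For gained peaks outside CBP sites 5.98% were decreasing and 55.1% increasing. The classes were made by the authors from the H3K27ac data of this series, so these shares describe the same contrast and were not tested.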

How the data were processed

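The authors aligned reads with BWA to mm9, per the submitters' processing notes. The deposited peak lists hold a score per peak, whose lowest value is 50 in each list. H3K27ac replicates were merged before deposit and AP-1 lists were deposited per library. CBP, class and combined c-Fos lists hold single positions. Read counts and depth were not used, so depth is unknown, and list lengths are given with the comparisons between conditions.

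Overlap meant 1 bp or more. Each share of peaks overlapped was computed per library. Log2 odds ratios had 0.5 added to each cell. Tests were exact two-sided permutations over libraries, or sign flips over per-library log2 odds ratios, with a threshold of 0.05. Same-numbered libraries come from the same biological sample per the labels, so they are paired. Nothing says how separate the cultures were. Overlap and odds code, tested on simulated data for lost against gained peaks (8726 regions), found 100% of planted overlaps and returned a log2 odds ratio of -2.06 where -2.06 was simulated. With no difference simulated, 3.00% of 100 simulations were called. Planted peaks were placed to overlap their regions and simulated libraries did not differ by culture or antibody, so only the code was checked. Regions named are the 10 highest scoring, the 10 with c-Fos in most libraries, the 5 widest, the 3 largest groups (ties by summed score) and those at the boundary. Peaks and lists were chosen with earlier results of these data known. Genes, sequences and cell type markers were not analysed here, for want of an mm9 annotation. Python 3.11.15, numpy 2.4.6, scipy 1.17.1 and matplotlib 3.10.9 were used.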

Additional observations from a re-analysis of the deposited data

How the results depend on the processing

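Of 115 alternative settings, 2 reversed a difference, both by keeping the same number of best-scoring AP-1 peaks per library: FosB in lost peaks, KCl minus unstimulated, became -0.253 percentage points, and FosB shRNA minus control shRNA became 1.09. The same setting took the KCl minus unstimulated c-Fos difference to 0.00487 percentage points (exact permutation p = 1). Settings that can reach no exact permutation p under the threshold gave 4.39 with the replicate block (exact permutation p = 0.125), 2.67 with sc52 alone, 6.11 with sc7202 alone and 2.62 to 6.16 when a biological sample was left out. The other 3 differences have 2 pairs each and allow no call with or without the block. AP-1 peaks scoring at least 100 gave smaller differences, 1.36 for c-Fos after KCl, 0.185 for FosB after KCl, -1.31 under c-Fos shRNA and -0.409 under FosB shRNA. Equal list lengths took the c-Fos shRNA difference to -0.0974.

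The mean log2 odds ratios of the KCl libraries kept their sign in every setting. In order against kept peaks, lost peaks with a CBP site and gained peaks, they were -1.48, -2.58 and -2.23 per culture, -1.36, -2.73 and -2.05 for FosB in place of c-Fos, -0.94, -2.91 and -1.97 for JunB, -1.35, -2.73 and -2.69 for the combined c-Fos sites, -1.57, -2.62 and -2.31 with sc52 alone, and -1.38, -2.67 and -2.14 with sc7202 alone. Without the KCl sc52 library of sample 4, a setting added after the data were seen, they were -1.45, -2.58 and -2.12. Leaving out a biological sample gave -1.56 to -1.46, -2.70 to -2.56 and -2.42 to -2.04. All of these have fewer than 6 libraries and cannot reach p = 0.05 (smallest exact permutation p = 0.0625 with 5 libraries). With lists of equal length the ratios were larger, -2.13, -3.07 and -3.01. Requiring a score of at least 100 in the unstimulated list, with the KCl list unchanged, left 2134 lost peaks. Short AP-1 lists limit all shares, since a missing peak does not show that a protein was absent.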

Other observations

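By mean share, c-Fos after KCl was more frequent at lost peaks far from a KCl H3K27ac peak than at those close to one. The mean c-Fos share over the 6 KCl libraries was 3.35% ± 1.76 (SD) for lost peaks within 2 kb of a KCl H3K27ac peak, 3.89% ± 2.23 at 2 to 10 kb, 4.72% ± 2.17 at 10 to 50 kb and 6.34% ± 2.91 farther away. By the gap to a CBP position the shares were 4.32% ± 2.36 within 5 kb, 4.11% ± 2.16 at 5 to 20 kb, 4.24% ± 2.02 at 20 to 100 kb and 6.08% ± 2.73 beyond. Lost peaks alone within 10 kb had 4.93% ± 2.31, those in groups of 2 had 4.39% ± 2.26, and the 146 in groups of 3 or more had 2.05% ± 1.73. These are values with no test, and the spreads given for lost peaks overlap.

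By width, the c-Fos share of lost peaks was 3.66% ± 1.79 under 1500 bp and 5.93% ± 2.54 from 2500 bp. By chromosome the c-Fos share of lost peaks lay between 2.12% ± 0.820 on chromosome X, which holds 63 lost peaks, and 6.61% ± 2.60 on chromosome 8.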
